A study of Mytilus galloprovincialis with 12 samples.

Results

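The 4 arrays described here compared digestive gland RNA of female mussels (Mytilus galloprovincialis) injected with 17β-estradiol (E2) with RNA of vehicle-treated mussels. They are the arrays titled as estradiol replicates 1 to 4, out of 12 dual color arrays in the series, and the other 8 carried the treatments CHP and CHP/E2. The question put to the E2 arrays was which transcripts respond to the natural estrogen when it is given without a pesticide.

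E2 mussels received 25 pmol of 17β-estradiol by injection into the posterior adductor muscle. CHP/E2 mussels were exposed for 3 days to the organophosphate chlorpyrifos (CHP) at 4.5 mg/l and were also injected with 25 pmol E2. CHP mussels were exposed to 4.5 mg/l for 4 days by the labels. The paper instead gives the same 3 days of exposure for CHP and CHP/E2 mussels, followed by the injection and clean sea water. By the labels, vehicle-treated mussels were kept for 4 days in 0.02% DMSO and were injected after 3 days with 50 µl of artificial sea water holding 0.05% ethanol. By the paper, E2 mussels were also kept in 0.02% DMSO before the injection, and their E2 was given in sea water with as much ethanol. CHP mussels received the ethanol injection without E2. Tissue was taken the day after the injection. All mussels were sampled in October, and each RNA sample was a pool of digestive gland pieces from 6 animals, so variation between single animals was not measured. The titles call the 4 E2 arrays separate replicates, and the paper states that each condition had 4 biological replicates, with 1 on each array. The scan names carry the treated pool number 2 for both E2 replicates 2 and 4, and vehicle pools 1, 2 and 3 for E2 replicates 1, 2 and 3 with no number for replicate 4. If pools were shared, the p-values below measure in part a technical spread.

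17β-Estradiol is the main estrogen of vertebrates, where it binds nuclear receptors that act as transcription factors and also triggers rapid kinase signaling at the cell membrane. In bivalves the hormone is active in tissues, but its receptor and its origin are less settled than in vertebrates. The digestive gland is the organ in which mussels digest food within lysosome-rich cells, store reserves and transform pollutants. In pooled tissue RNA, fewer cells of a type and less RNA per cell cannot be told apart.

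The array holds 1920 cDNA clones, each printed on 2 spots, and 1816 clones with a deposited value were tested. The files identify them by clone ID only: 0 of the 1920 IDs occur in the RefSeq gene table of the species and every spot name reads unknown. Clones are therefore given without a gene name, function, genome position or sequence, and the labelled tissue could not be checked against marker genes. On the E2 arrays the median spot was 1.77 to 3.29 times its background in the E2 channel and 1.33 to 2.71 times in the vehicle channel, and 71.2% to 85.7% of clone spots were more than 2 background SDs above their background in 1 or both channels. E2 RNA carried Cy5 on replicates 1, 2 and 3 and Cy3 on replicate 4, whose ratios were turned. With this turn the recomputed ratios correlated with the deposited ones at 0.923 to 0.940 across clones.

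Few clones were called as changed with E2, and their number depended on the handling of the arrays, as given below. Clones that were not called were not shown to be unchanged. A clone was called differentially expressed (DEG) where B, limma's log odds of differential expression, exceeded 0. By this rule 8 of 1816 clones (0.441%) were DEGs, of which 4 were higher and 4 were lower in E2 mussels than in vehicle mussels. The paper, with a B over 0 as well, reports more E2 DEGs than this or any other setting used here. The reason for this difference was not tested. At a Benjamini-Hochberg adjusted p under 0.05, 3 clones passed (0.165%), 1 higher and 2 lower. An unadjusted p under 0.05 was reached by 152 clones (8.37%), 83 higher and 69 lower. The median size of the log2 ratio was 0.79 over the 8 DEGs and 0.07 over all clones, whose 5th and 95th percentiles were -0.28 and 0.30.

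**Figure D1:**
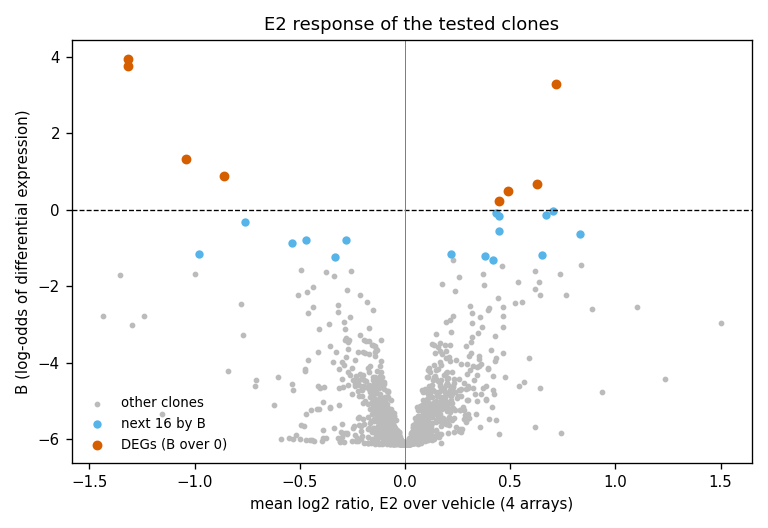
Each point is 1 of the 1816 clones, with the mean log2 ratio of E2 over vehicle (n = 4 arrays) on the horizontal axis and B on the vertical axis. The 8 DEGs lie above B = 0, with 4 on each side of a ratio of 0.

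The direction of the ratio was the same on all 4 arrays for each of the 8 DEGs. Over all tested clones this held for 394 (21.7%), of which 207 were higher and 187 lower in E2 mussels. B was computed from the same ratios and favours clones of 1 direction, so nothing is read from this difference. The DEGs came from 6 of the 20 source plates: 2 each from plates 10 and 14 and 1 each from plates 4, 5, 8 and 9. The 2 spots of a DEG on an array differed by a median of 0.05 and by at most 0.31 on the log2 scale, so the spread between spots lay well below most of the ratios.

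Clone Myt01-008H06 was among the 2 clones with the deepest falls of the DEGs. Its log2 ratios of E2 over vehicle were -0.86, -1.49, -1.49 and -1.42 on replicates 1 to 4. Replicate 1 stood apart with the smallest fall, and the other three lay within 0.1 of each other. The mean was -1.32 ± 0.31 (SD, n = 4), so the level with E2 was 2.49-fold lower than with vehicle (standard error 0.17, adjusted p = 0.00761, limma). The spots were bright, at 10.1 to 25.7 times background in the E2 channel and 7.75 to 82.1 times in the vehicle channel.

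Clone Myt01-009F03 fell by the same mean, with log2 ratios of -0.70, -1.44, -1.51 and -1.62. Here too replicate 1 had the smallest fall. The mean was -1.32 ± 0.42 (SD, n = 4; standard error 0.17, adjusted p = 0.00761, limma). Its spots were 12.3 to 64.3 times background in the E2 channel and 18.4 to 107 times in the vehicle channel.

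The other falling DEGs passed B but not the adjusted p. Clone Myt01-010F03 had log2 ratios of -0.40, -1.16, -0.98 and -1.63, with a mean of -1.04 ± 0.51 (SD, n = 4, adjusted p = 0.0655, limma). Its E2 channel was more than 2 background SDs above background on 3 of the 4 arrays. On replicate 4, which gave the value of -1.63, it was 2.10 times background but did not pass this limit. Clone Myt01-004D03 had ratios of -0.42, -0.92, -0.95 and -1.15, with a mean of -0.86 ± 0.31 (SD, n = 4; adjusted p = 0.085, limma). All 4 falling DEGs had their smallest fall on replicate 1. Myt01-009F03, Myt01-010F03 and Myt01-004D03 had their deepest fall on replicate 4, the array with exchanged dyes.

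Clone Myt01-005E01 was the only rising DEG past the adjusted p. Its log2 ratios were 0.53, 0.59, 0.66 and 1.09, all above 0, with the highest on replicate 4. The mean of 0.72 ± 0.25 (SD, n = 4) corresponds to a 1.65-fold higher level with E2 than with vehicle (standard error 0.10, adjusted p = 0.0091, limma). The spots were dimmer than those of the deepest falls, at 2.04 to 10.5 times background in the E2 channel and 1.21 to 2.90 times in the vehicle channel.

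The other 3 rising DEGs passed B only. Clone Myt01-010D08 was the most even of the DEGs across arrays, with log2 ratios of 0.68, 0.64, 0.65 and 0.54 and a mean of 0.63 ± 0.06 (SD, n = 4; adjusted p = 0.0899, limma). Clone Myt01-014B05 had ratios of 0.33, 0.39, 0.43 and 0.81, with a mean of 0.49 ± 0.21 (SD, n = 4; adjusted p = 0.0937, limma). Clone Myt01-014B04 had ratios of 0.50, 0.33, 0.22 and 0.74, with a mean of 0.45 ± 0.23 (SD, n = 4; adjusted p = 0.108, limma). The last of these lies closest to the threshold, and both clones of plate 14, like Myt01-005E01, were highest on replicate 4.

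**Figure D2:**
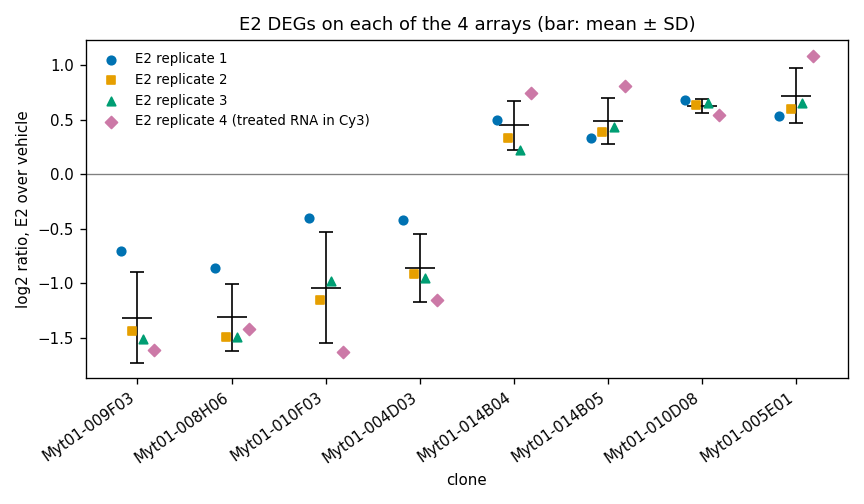
The log2 ratio of E2 over vehicle of each DEG on each of the 4 E2 arrays, with the mean and SD (n = 4). The 4 falling clones sit at or below -0.40 on every array and the 4 rising clones at or above 0.22.

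The clones just below the threshold followed without a gap. The next 16 clones by B had B values of -0.03 to -1.31, ratios of 0.22 to 0.98 in size and adjusted p-values of 0.111 to 0.183 in limma, and 10 were higher and 6 lower in E2 mussels. Each of the 16 kept 1 direction on all 4 arrays, which the ranking by B favours. The first of them, Myt01-009D08, had log2 ratios of 0.78, 0.84, 0.70 and 0.49 and a mean of 0.70 ± 0.15 (SD, n = 4; B = -0.03), a larger ratio than those of the rising DEGs Myt01-010D08, Myt01-014B05 and Myt01-014B04. Myt01-008H08 had the largest ratio of the 16, at -0.98 ± 0.36 (SD, n = 4).

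A large mean ratio was not sufficient for a call. Of the 11 clones with a mean above 1 or below -1 (0.606%), 3 were DEGs. The other 8, 3 higher and 5 lower, had SDs of 0.46 to 2.31. The largest rise, that of Myt01-001B07, had log2 ratios of 1.71, 1.74, 2.12 and 0.44 (SD 0.73, n = 4), with replicate 4 well below the others. The deepest fall was that of Myt01-009F02 at -1.44 ± 0.92 (SD, n = 4), and Myt01-009A12 had the largest spread, with ratios of 0.81, -0.16, -4.47 and -0.80. The mean of Myt01-009A12 thus rested on replicate 3. The next most variable clones were Myt01-009D11 with ratios of -1.44, 0.22, 2.35 and 1.83, and Myt01-004F11 with -0.70, 1.36, 2.52 and 1.76. Myt01-005B04 followed with -0.69, 0.70, 2.20 and 1.54. Myt01-007G11 had -0.16, 0.58, -0.32 and 2.38. Part of these ratios come from dim spots, taken as those not more than 2 background SDs above background. The vehicle channel passed this limit on 2 of 4 arrays for Myt01-009D11 and Myt01-007G11 and on 3 of 4 for Myt01-005B04. The E2 channel of Myt01-009D11 passed it on 3 of 4. None of these 5 clones was called in limma, where their lowest unadjusted p was 0.0744.

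The E2 arrays were similar to each other only in part. Across the 1816 clones, which are not independent replicates, Pearson's r was 0.51 between replicates 2 and 3 and 0.45 between replicates 2 and 4, the pair with the shared treated pool number. It was 0.23 between replicates 1 and 2, which share a slide, and 0.07 and 0.10 between replicate 1 and replicates 3 and 4. Replicates 3 and 4 reached 0.23, whereas Spearman's rho was 0.01. Against the mean of replicates 1 to 3, the dye-swapped replicate 4 had an r of 0.34. Of 192 clones whose mean over replicates 1 to 3 exceeded 0.3 in size, replicate 4 had the same direction for 130 (67.7%) and the opposite direction for 62.

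The same 8 clones were then compared with the other treatments on the same array type. All ratios have vehicle RNA as the reference, so the treatments are not independent. As the clones were chosen by their E2 ratio, a larger ratio with E2 is in part a matter of that choice. Over all clones, B exceeded 0 for 14 with CHP/E2 (0.771%) and for 39 with CHP (2.15%). Clone Myt01-008H06 had a mean log2 ratio of -1.32 ± 0.31 with E2, against -0.00 ± 0.38 with CHP/E2 and -1.95 ± 0.39 with CHP (SD, n = 4 each). With CHP/E2 its single values were 0.21, 0.09, 0.25 and -0.55, none as low as any E2 value. With CHP they were -2.16, -1.41, -1.96 and -2.29, which overlap with E2, and the CHP ratio passed B (adjusted p = 0.000123, limma).

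The difference of E2 minus CHP/E2 was -1.31 for Myt01-008H06 (standard error 0.23, adjusted p = 0.0744, limma) and passed B. Myt01-009F03 had -1.32 ± 0.42 with E2, against -0.01 ± 0.33 with CHP/E2 and -1.59 ± 0.35 with CHP (SD, n = 4 each), and its difference of E2 minus CHP/E2 was also -1.31 (standard error 0.24, adjusted p = 0.0744, limma) and passed B. These were 2 of 6 clones in all (0.33%) with a B over 0 for E2 minus CHP/E2. The other 2 falling DEGs were close to 0 with CHP/E2, at -0.01 for Myt01-010F03 and 0.11 for Myt01-004D03, but their differences of -1.03 and -0.97 had adjusted p-values of 0.208 in limma and did not pass B. With CHP they averaged -1.10 and -1.22, and both passed B (adjusted p = 0.00837 and 0.00324, limma). The CHP ratio of Myt01-009F03 also passed B (adjusted p = 0.000529, limma), so every falling DEG was called with CHP too.

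Of the rising DEGs, Myt01-005E01 averaged 0.72 with E2, against 0.08 with CHP/E2 and 0.35 with CHP, and its difference of E2 minus CHP/E2 was 0.64 (standard error 0.14, adjusted p = 0.157, limma). Myt01-014B05 averaged 0.49 with E2, against -0.13 with CHP/E2 and -0.03 with CHP. Myt01-014B04 averaged 0.45 with E2, against 0.16 with CHP/E2 and -0.07 with CHP. Myt01-010D08 averaged 0.63 with E2, against 0.53 with CHP/E2, where it did not pass B (adjusted p = 0.111, limma), and 0.77 with CHP, where it did (adjusted p = 0.00574, limma). Its difference of E2 minus CHP/E2 was 0.10 (standard error 0.17, adjusted p = 0.964, limma). None of the differences of the rising DEGs passed B in limma, and none of the 8 DEGs passed B for E2 minus CHP, for which 4 clones in all did (0.22%). At an unadjusted p under 0.05, 7 of the 8 DEGs differed between E2 and CHP/E2, against 161 of all 1816 clones (8.87%), and 4 of the 8 between E2 and CHP, against 152 of all clones (8.37%). The 8 were chosen on the same E2 values that enter these differences, so nothing is read from these counts.

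**Figure D3:**
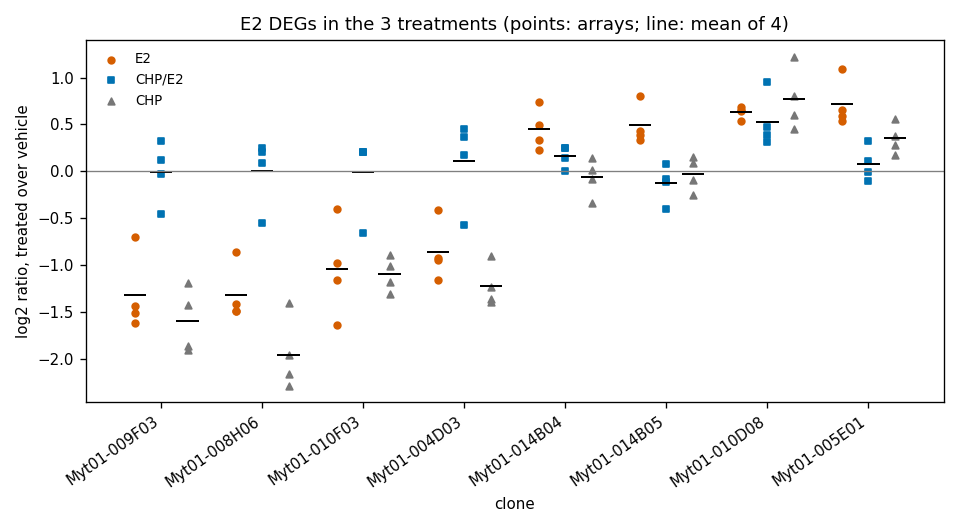
The log2 ratio over vehicle of the 8 DEGs with E2, CHP/E2 and CHP, with 1 point per array (n = 4 each). The 4 falling clones average -0.86 to -1.32 with E2, -0.01 to 0.11 with CHP/E2 and -1.10 to -1.95 with CHP.

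On slide 4, which held E2 and CHP/E2, and on slide 7, which held E2 and CHP, treatments could be compared within the slide, with 1 array each and hence no test. On slide 4, E2 replicate 3 minus CHP/E2 replicate 3 was -1.74 for Myt01-008H06, -1.64 for Myt01-009F03, -1.18 for Myt01-010F03 and -1.13 for Myt01-004D03. These had the sign of the differences over all arrays. Among the rising DEGs it was 0.76 for Myt01-005E01, 0.54 for Myt01-014B05, 0.34 for Myt01-010D08 and -0.03 for Myt01-014B04, the last with the opposite sign. On slide 7, E2 replicate 4 minus CHP replicate 3, both with exchanged dyes, was 0.54 for Myt01-008H06, 0.28 for Myt01-009F03, -0.33 for Myt01-010F03 and 0.23 for Myt01-004D03. For the rising DEGs it was 0.53 for Myt01-005E01, -0.68 for Myt01-010D08, 1.06 for Myt01-014B05 and 1.08 for Myt01-014B04, the last pair being the largest of the 8.

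The number of DEGs depended on the handling of the arrays. Over 28 alternative settings, 12 of which left out 1 of the 12 arrays, no clone among the 8 DEGs and the next 16 changed its sign. Several settings, such as those without a CHP or CHP/E2 array, left the mean E2 ratio unchanged by construction. The clones were also chosen by B from the same E2 arrays, so nothing is read from the stable sign. Myt01-008H06 and Myt01-009F03 were called in 27 of the 28, with mean log2 ratios of -1.54 to -1.13 and -1.52 to -1.08. Myt01-005E01 was also called in 27, with ratios of 0.50 to 0.89, and lost its call where the E2 arrays were fitted alone. Myt01-010F03 was called in 22, Myt01-004D03 in 21, Myt01-010D08 in 20, Myt01-014B05 in 14 and Myt01-014B04 in 11.

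Both of the deepest falls among the DEGs lost their call with median centring in place of loess. Under it the log2 ratios of Myt01-008H06 were -0.41, -1.39, -0.85 and -1.88 (adjusted p = 0.259, limma) and those of Myt01-009F03 were -0.15, -1.31, -0.72 and -2.13 (adjusted p = 0.337, limma). All 8 values stayed below 0, but the SDs over the 4 arrays were 0.64 and 0.85. Of the 6 DEGs with median centring, 5 were higher and 1 was lower in E2 mussels. For Myt01-005E01 the ratios were then 0.82, 0.62, 1.06 and 0.98 (adjusted p = 0.002, limma). Without E2 replicate 2 there were 5 DEGs and without E2 replicate 4 there were 4, and each of these fits called 3 of the 8.

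The adjusted p of the 3 clones that passed it was less stable than B. Myt01-008H06, Myt01-009F03 and Myt01-005E01 each had an adjusted p of 0.0591 without E2 replicate 3 and of 0.0596 without E2 replicate 4 (limma). With the E2 arrays fitted alone it was 0.102 for Myt01-008H06, 0.191 for Myt01-009F03 and 0.204 for Myt01-005E01. With the arrays of the same pool number averaged, that of Myt01-009F03 was 0.0642, and with no background correction that of Myt01-005E01 was 0.0901.

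**Figure D4:**
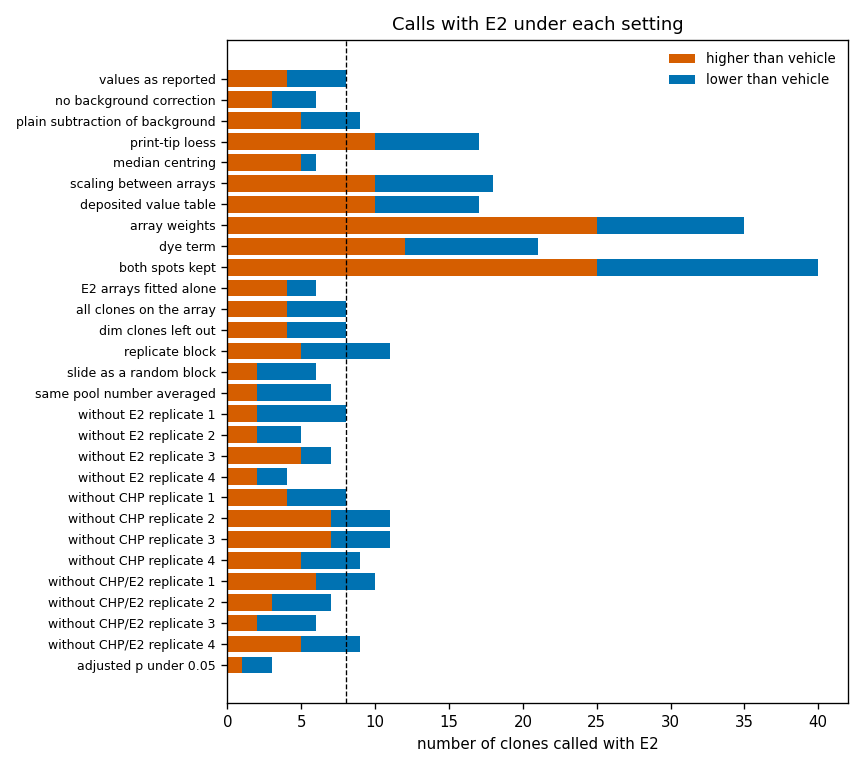
The number of E2 DEGs, higher and lower than in vehicle, in each setting, starting with the 8 of the main setting. The total ranges between 3 and 40.

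The deposited ratios gave 17 E2 DEGs, 10 higher and 7 lower, among them all 8 of the recomputed ones. Of the 17, 15 belong to the 24 clones with the highest B described above. Among the deposited ratios, 12 clones had an adjusted p under 0.05 in limma. Myt01-009D08, just below the threshold here, had a deposited mean of 0.78 (adjusted p = 0.0135, limma) beside the recomputed 0.70, and Myt01-005E01 had 0.83 (adjusted p = 0.00591, limma) beside 0.72. The clone means of both versions had an r of 0.957.

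Some of the clones with large ratios came from the same well of adjoining source plates, a pattern seen after the values were known. The clones of well F03 had mean log2 ratios of E2 over vehicle of -1.32 ± 0.42, -1.04 ± 0.51, -0.77 ± 0.58 and -0.34 ± 0.23 on plates 9, 10, 11 and 12 (SD, n = 4). Those of well D08 had 0.70 ± 0.15, 0.63 ± 0.06, 0.21 ± 0.14 and 0.04 ± 0.15. In both wells the size of the ratio was lower on each further plate. The DEGs Myt01-009F03, Myt01-010F03 and Myt01-010D08 thus share a well with other clones that moved in the same direction. On the slide, the clones of plates 9 and 10 in wells F03 and D08 lie at the same column and row of different print blocks.

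Well F02, which held no DEG, had -1.44, -1.30, -0.29 and -0.46 on the same plates, and well B07 had 0.67, 0.42, 0.16 and 0.14. Wells on other plates varied. Beside -1.32 for Myt01-008H06, the clones of well H06 on plates 5, 6 and 7 had -0.02, -0.01 and -0.22. Beside -0.86 for Myt01-004D03, those of well D03 on plates 1, 2 and 3 had -0.01, -0.11 and 0.04. In well E01, Myt01-005E01 had 0.72 and the clones on plates 6, 7 and 8 had 0.10, -0.12 and 0.36, so that of plate 8 lay in the same direction. The other clones of wells B05 and B04 on plates 13, 15 and 16 lay between -0.10 and 0.12. Over all shared wells, the E2 ratios of plates 9 and 10 had a Pearson's r of 0.70 over 91 wells, the highest of 190 plate pairs, and plates 12 and 13 followed with 0.46. By Spearman's rho the order of these turned, with 0.42 for plates 9 and 10 and 0.45 for plates 12 and 13. The median Pearson's r was 0.15 for the 19 consecutive pairs and 0.04 for the other 171. Whether these clones hold related cDNAs or share material through printing was not tested, as no clone sequences were used here.

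**Figure D5:**
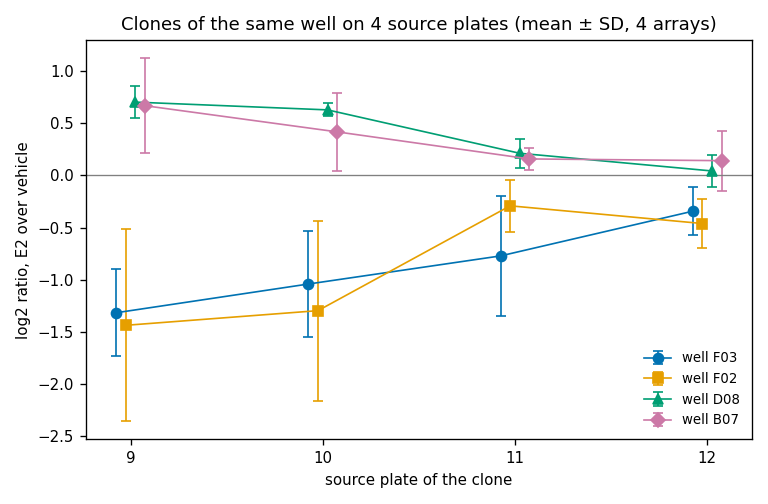
The mean log2 ratio of E2 over vehicle of the clones of wells D08, B07, F03 and F02 on plates 9 to 12, with SDs over 4 arrays. The ratios on plates 9 and 10 are the largest in each well.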

How the data were processed

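Digestive gland RNA on 12 dual color arrays was analysed, 4 of them with E2. The authors deposited scanner intensities (spot mean and local background median of both channels, not normalized) and their own normalized log2 ratios, whose medians lie between -0.01 and 0.01 on the E2 arrays. Their tool is given as limma, with no version, and the normalization within it is not given in the sources used here. From the intensities, background was corrected with normexp (offset 50) and ratios were normalized by loess within each array, with 720 alignment or blank spots at weight 0. The 2 spots of a clone were averaged. The 104 clones with no deposited value were left out. All 12 arrays entered 1 limma fit (lmFit, eBayes, prior proportion 0.01, two-sided), with E2 over vehicle, E2 minus CHP/E2 and E2 minus CHP as contrasts and Benjamini-Hochberg adjustment over the 1816 clones. DEGs had B over 0, the study's threshold. The script was tested on simulated data. The number of arrays limits the precision.

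Named were the DEGs and the next clones by B, up to 24, and the 5 clones with the largest spread. Clones past 1 in size were added after their values were seen, as were the wells. The members, rules and alternatives were chosen with earlier results of these data known. Planned lists of genes and cell type markers could not be applied, since no clone ID could be matched to a gene. The software was R 4.3.3 with limma 3.58.1, and statmod 1.5.0 for the random blocks.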

Additional observations from a re-analysis of the deposited data

Results flagged for a closer look

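Among 29 clones examined for 1 E2 array far from the other three, 1 stood out: Myt01-008H06, whose log2 ratio on E2 replicate 1 was -0.86, against -1.42 on the nearest array. Chance alone marks about 1 in 20 groups of 4 in this way. The difference of E2 minus CHP/E2 had a B over 0 for 6 of 1816 clones (0.33%), 2 of them DEGs. These were Myt01-008H06 with -1.31 and Myt01-009F03 with -1.31 (adjusted p = 0.0744 for both, limma). The DEGs were chosen on the same E2 values that enter this difference, so nothing is read from the count.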

How the results depend on the processing

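Against 8 E2 DEGs, print-tip loess and the deposited ratios gave 17 each, scaling between arrays 18, a dye term 21, array weights 35, both spots kept as duplicates 40, and the adjusted p 3. No background correction, plain subtraction, median centring, E2 arrays fitted alone, all clones on the array, dim clones left out, slide as a random block and the averaging of the arrays with the same pool number gave 6 to 9, but only 1 of the 8 was among those of median centring and 3 among those of the E2 arrays alone. Leaving out 1 array gave 4 to 11. For E2 minus CHP/E2, with 6 clones, median centring gave 1, scaling and a dye term 11 each, array weights 21, both spots 28 and the adjusted p 1, and leaving out 1 array gave 2 to 9, with 2 without any of E2 replicates 2, 3 and 4 or CHP/E2 replicate 3. For E2 minus CHP, with 4 clones, median centring gave 1, a dye term 9 and both spots 20, and leaving out 1 array gave 3 to 16, the 16 without CHP replicate 2. The causes were not tested.

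Replicate numbers were not used to pair the arrays in the main fit. Of 12 same-numbered pairs, 6 had an r over 0.1 between their deviations (range -0.45 to 0.60), and 4 of 12 arrays correlated best with their own number. No r of differently numbered pairs is given beside these, so whether the numbers pair the arrays was not settled. The replicate block gave 11 E2 DEGs, 6 of them among the 8, and 4 clones for each difference.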
